A study of Mus musculus with 2 samples.

Results

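The sine oculis homeobox and Eya network of the mouse mandible was followed through 6 of its genes, Six2, Six4, Eya1, Eya2, Eya4 and Dach1, which were taken by symbol from the 27998 genes listed at E12.0 and the 31053 listed at E9.5. Single-cell RNA-seq had been performed on mandibular arches of K14Cre;R26mT/mG embryos, and nothing was deleted or treated in either library. In these embryos a keratin 14 promoter drives Cre recombinase, which switches a reporter in the epithelium from membrane tdTomato to membrane GFP. The E12.0 library held Dispase-peeled, GFP-positive epithelial cells sorted from 6 pooled embryos of a single litter, so epithelium in which Cre had not yet acted would be missed. The E9.5 library held unsorted cells of the whole arch from 8 pooled embryos of another litter, and carried the same alleles. There was 1 library at each stage and the cells of a library are not replicates, so no test was made and every interval below is a 95% interval that covers counting error only.

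Six2 and Six4 belong to the sine oculis homeobox family of transcription factors, named after a Drosophila eye gene. Eya proteins, named after eyes absent, do not bind DNA themselves but join these factors as coactivators and carry a phosphatase domain, whereas Dach proteins, the relatives of dachshund, can act with them as corepressors. The network is best known from sensory placodes, kidney, ear and pharyngeal arch derivatives, including branching organs and the muscles of the head.

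After the filter on cells (200 to 5500 genes and at most 10% mitochondrial counts), 11355 of 11663 barcodes with 77936364 UMIs remained at E12.0, with a median of 6349 UMIs per cell. At E9.5, 12744 of 14293 barcodes with 166191431 UMIs remained, with a median of 13460.5. The libraries had 51 cell barcodes in common, 44 of them among the kept cells. Levels are given as CPM, the UMIs of a gene per 1000000 UMIs summed over a group of cells. At E12.0 a cell belonged to a zone when it passed the gate of that zone and no other: Foxc1, Dmrt2 or Irx1 (1 UMI) or Cxcl14 (5 UMIs), with cells that held Pax9 and none of these forming the Pax9 zone. This gave 651 Foxc1, 281 Pax9, 517 Dmrt2, 1360 Irx1 and 4146 Cxcl14 cells, beside 4006 ungated and 394 mixed cells. Of the mixed cells 38.3% were called doublets, against 2.5% to 5.57% in the 5 zones. Epithelial markers (Epcam, Cdh1 and 4 others) summed to between 776 and 1246 CPM in the zones, and mesenchymal markers to between 2.51 and 9.82 CPM. All 6 haemoglobin genes were listed at 0 in every kept cell, without even stray UMIs, so they were not used as a check for blood at E12.0.

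The promoters of Six2 and Six4 are shown because these family members lay at opposite ends, steep and flat, across the E12.0 zones described below. RefSeq windows around the transcription start (build GRCm38.p6) were found for Six2, Six4, Eya4 and Dach1. They were searched on both strands for the forkhead motif TGTTTAC and for the MEF3 element TCAGGTTTC, which proteins of this family bind, and for its shorter core TCAGGTT. Capitals mark a match, and both windows run 5′ to 3′ on the minus strand.
Six2, chr17:85688205-85688504: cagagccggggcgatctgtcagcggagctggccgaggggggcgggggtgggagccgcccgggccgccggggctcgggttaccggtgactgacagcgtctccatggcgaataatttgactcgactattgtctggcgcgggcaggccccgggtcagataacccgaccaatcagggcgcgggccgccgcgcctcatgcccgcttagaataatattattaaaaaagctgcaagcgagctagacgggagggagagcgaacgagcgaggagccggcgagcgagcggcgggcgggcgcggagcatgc
Six4, chr12:73113196-73113495: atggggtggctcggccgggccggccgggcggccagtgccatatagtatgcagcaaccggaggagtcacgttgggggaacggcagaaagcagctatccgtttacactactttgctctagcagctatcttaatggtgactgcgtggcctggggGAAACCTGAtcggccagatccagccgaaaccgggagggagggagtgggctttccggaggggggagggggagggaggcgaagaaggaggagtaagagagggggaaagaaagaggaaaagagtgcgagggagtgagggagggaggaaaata
The Six4 window held the MEF3 letters once, in reverse, and the core lies within them. Of all 32851 windows of this length, 0.429% held the MEF3 letters, 4.07% the core and 3.65% the forkhead letters. The Six2 window, the second Six4 window, both Eya4 windows and the Dach1 window held none of these letters. A match of letters is a description of the window and not a binding site.

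At E12.0 the network was not uniform across the epithelium. Six2 was highest in the Foxc1 zone, Eya4 in the Dmrt2 zone and Dach1 in the Irx1 zone. Eya2 was high in the Foxc1, Pax9 and Dmrt2 zones together, and Six4 lay between 34.6 and 41.0 CPM in every zone but Foxc1. A pair of a member and a zone passed the size rule when its CPM in the zone was 1.5-fold or more over the remaining kept cells, with 10 CPM reached on either side. Of the 30 pairs 10 passed upwards and 5 downwards, and 22 reached 10 CPM.

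**Figure D1:**
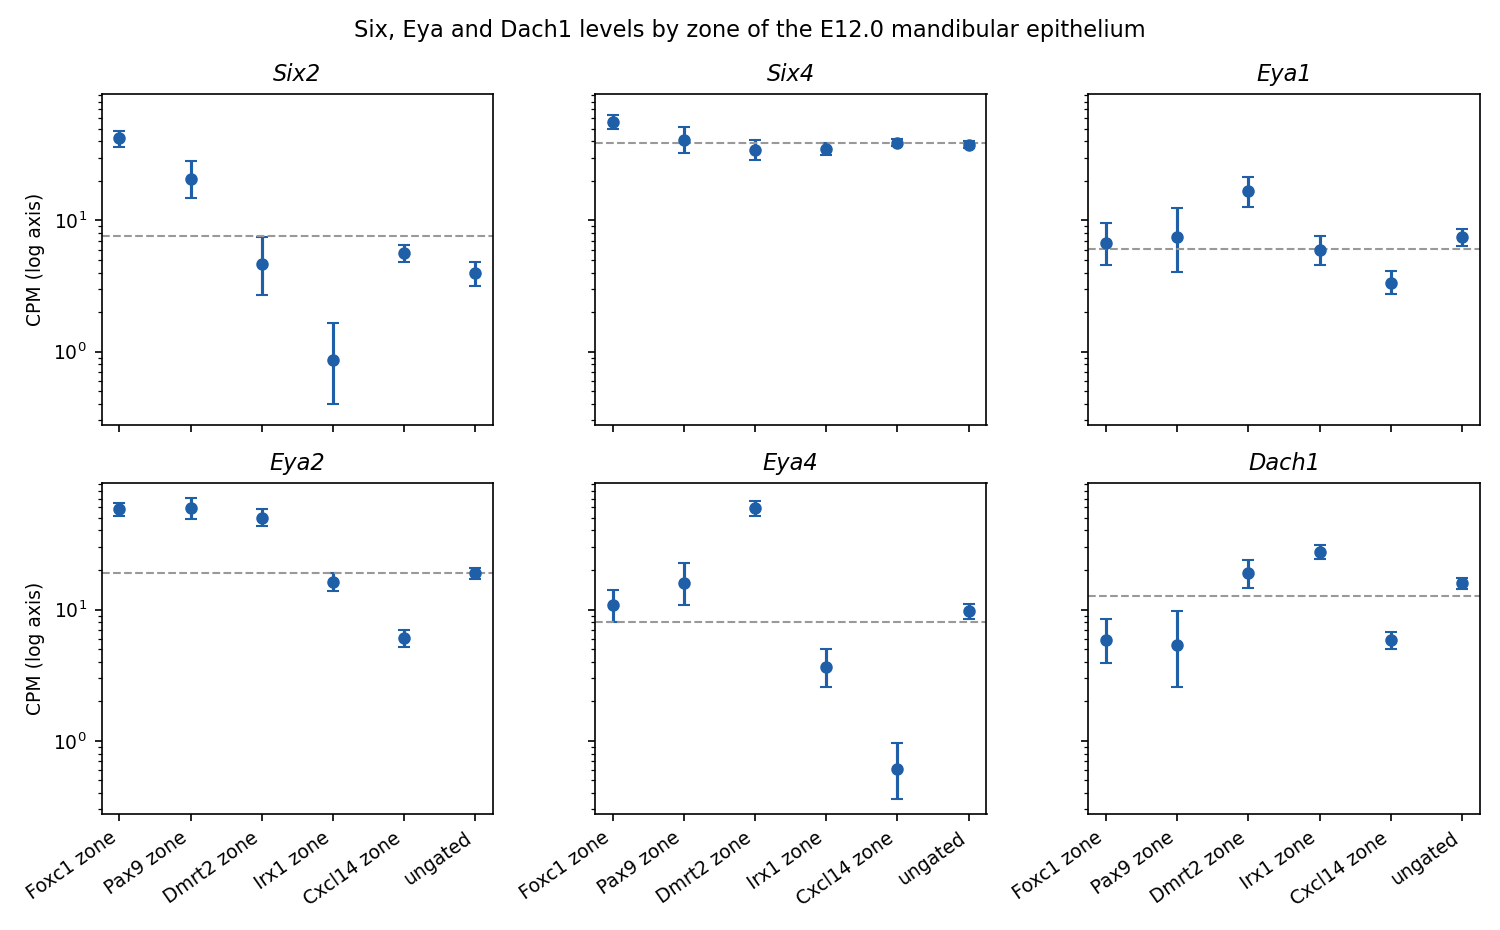
CPM on a log axis of each member in the 5 E12.0 zones and in ungated cells. Points are CPM over the summed cells of 1 library, bars are 95% Poisson intervals and the dashed line is the level over all kept cells. Six2 peaks in the Foxc1 zone at 42.1 CPM, Eya4 in the Dmrt2 zone at 59.2 CPM and Dach1 in the Irx1 zone at 27.5 CPM, while Six4 stays between 34.6 and 56.2 CPM.

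Six2 (chromosome 17, 85684277 to 85688274, minus strand, GRCm38), which keeps nephron progenitors of the kidney undifferentiated, showed a steep zone pattern. Its level was 42.1 CPM (36.5 to 48.4) in the Foxc1 zone and 20.7 CPM (14.8 to 28.4) in the Pax9 zone. It was 5.61 CPM in the Cxcl14 zone, 4.64 CPM in the Dmrt2 zone and 0.87 CPM (0.40 to 1.64) in the Irx1 zone. The Foxc1 zone thus stood 7.90-fold over all other cells (log2 2.98, 2.73 to 3.23) and the Pax9 zone 2.86-fold (interval 2.01 to 3.97). In the order of zones, the Cxcl14 and Dmrt2 zones were the only neighbours whose ratio interval included no difference. A Six2 UMI was found in 23.3% of Foxc1-zone cells and 0.66% of Irx1-zone cells, although the median Irx1-zone cell was deeper (7099.5 against 6807 UMIs). When every cell was thinned to 4000 UMIs the shares were 14.4% and 0.30%. The Irx1 zone leaves out cells that also passed another gate. Among those, 63 cells with Foxc1 and Irx1 held Six2 at 49.2 CPM (33.7 to 69.5). The part of doublets in that level was not tested.

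Six4 (chromosome 12, 73099609 to 73113456, minus strand), which shares functions with other family genes in muscle and kidney, varied little between the zones. It lay at 56.2 CPM (49.7 to 63.4) in the Foxc1 zone and between 34.6 and 41.0 CPM in the other zones. The Foxc1 ratio of 1.49-fold (log2 0.57, 0.39 to 0.75) fell just below the size rule, and among the other 4 zones no neighbours in the order differed beyond their intervals. Dmrt2, the lowest zone, was separated from Foxc1 by 1.62-fold.

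The Eya genes divided the zones differently. Eya2 (chromosome 2, 165595032 to 165771727, plus strand), a coactivator with known roles in muscle and placodes, stood at 59.0 CPM in the Pax9 zone, 57.9 CPM in the Foxc1 zone and 50.2 CPM in the Dmrt2 zone, and these levels did not differ beyond their intervals. It then dropped to 16.2 CPM (13.8 to 18.8) in the Irx1 zone and 6.08 CPM (5.22 to 7.04) in the Cxcl14 zone. The Foxc1, Pax9 and Dmrt2 zones were 3.55-, 3.31- and 2.90-fold over other cells, and the Cxcl14 zone was 4.37-fold lower.

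Eya4 (chromosome 10, 23102963 to 23350786, minus strand), a gene mutated in hereditary deafness, was the member with the widest range. Its 59.2 CPM (51.6 to 67.6) in the Dmrt2 zone was 10.7-fold over other cells (log2 3.42, 3.18 to 3.66). It was 16.0 CPM in the Pax9 zone, 10.7 CPM in the Foxc1 zone and 3.66 CPM in the Irx1 zone, and 0.61 CPM (0.36 to 0.97) in the Cxcl14 zone. A UMI of Eya4 was present in 30.9% of Dmrt2-zone cells and in 0.41% of Cxcl14-zone cells, which had median depths of 6676 and 6490 UMIs. The Pax9 zone passed the rule at 2.03-fold, was lost when 2 UMIs were required at the gates (log2 0.44) or mitochondrial counts were limited to 5% (log2 0.32), and its level could not be separated from that of the Foxc1 zone (ratio 1.49, log2 -0.13 to 1.25).

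Eya1 (chromosome 1, 14168954 to 14310235, minus strand), the gene behind branchio-oto-renal syndrome, was low throughout. It reached 16.6 CPM (12.7 to 21.4) in the Dmrt2 zone, 2.99-fold over other cells, and lay between 5.97 and 7.45 CPM in the Foxc1, Pax9 and Irx1 zones, which did not differ beyond their intervals. It was 3.36 CPM (2.73 to 4.09) in the Cxcl14 zone. All 3 Eya members therefore passed in the Dmrt2 zone, where Six2 was 4.64 CPM and Six4 34.6 CPM.

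Dach1 (chromosome 14, 97786853 to 98169765, minus strand) followed another order. It was 27.5 CPM (24.4 to 30.9) in the Irx1 zone, 2.63-fold over other cells, and 18.8 CPM (14.6 to 23.8) in the Dmrt2 zone. It was 5.89 CPM in the Foxc1 zone, 5.84 CPM in the Cxcl14 zone and 5.32 CPM in the Pax9 zone, which could not be told apart. The Dmrt2 ratio of 1.51 (log2 0.60, 0.22 to 0.95) lay at the limit of the rule and dropped below it without called doublets (log2 0.45) and in thinned cells (log2 0.21). The Foxc1, Pax9 and Cxcl14 zones passed the rule downwards for Dach1, at 2.24-, 2.43- and 2.90-fold lower. Six2 was highest in the Foxc1 and Pax9 zones but 5.61 CPM in the Cxcl14 zone.

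These counts can be set against all genes that reached 10 CPM under the same rule. In the Foxc1 zone 2 of 5 members that reached 10 CPM passed upwards and 1 downwards, against 5.32% and 5.65% of all genes. In the Pax9 zone 3 of 5 passed upwards and 1 downwards, against 5.21% and 5.09%. In the Dmrt2 zone 4 of 5 passed upwards and 0 downwards, against 4.03% and 4.12%. In the Irx1 zone 1 of 3 passed upwards and 0 downwards, against 3.09% and 4.94%. In the Cxcl14 zone 0 of 4 passed upwards and 3 downwards, against 3.62% and 4.31%. The median log2 ratio of those members was 0.57, 1.02, 1.54, -0.18 and -1.83 in the 5 zones in this order, against -0.03 to 0.03 over all genes. A gene could reach 10 CPM through the zone in which it was high, so these shares describe the members and do not test them.

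All kept E12.0 cells were also grouped by their number of Foxc1 UMIs. The 530 cells with 1, 189 with 2 and 108 with 3 or more include mixed cells that passed another gate. Of all mixed cells 38.3% were called doublets. Six2 was 4.66 CPM in cells with 0 Foxc1 UMIs, 28.6 CPM (23.5 to 34.5) with 1 UMI, 54.7 CPM (43.7 to 67.5) with 2 and 55.5 CPM (42.4 to 71.5) with 3 or more. Eya2 was already 55.9 CPM with 1 Foxc1 UMI, against 15.6 CPM with 0, and lay at 45.3 CPM with 3 or more. Six4 went from 37.5 CPM to 75.9 CPM (60.4 to 94.2) between the lowest and highest class. Cells with more Foxc1 UMIs were also deeper, with median totals of 6300, 6714, 7507 and 9154 UMIs, and the share of cells thinned to 4000 UMIs that held Six2 was 1.60%, 10.8%, 20.2% and 18.5%.

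**Figure D2:**
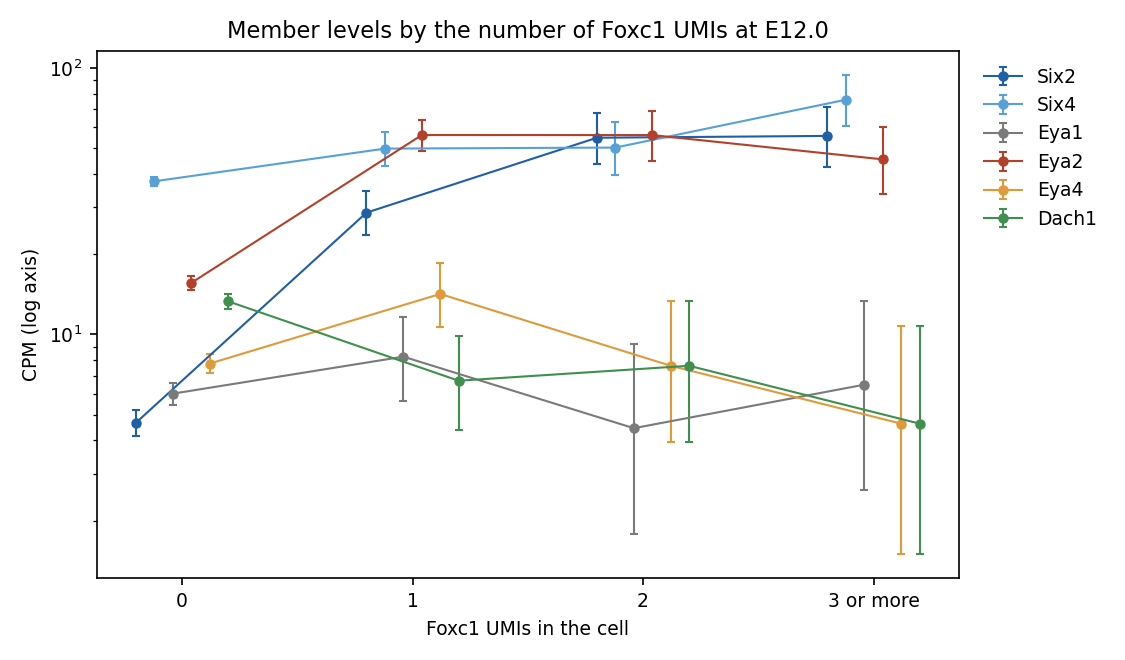
CPM on a log axis of the 6 members in all kept E12.0 cells, mixed cells included, with 0, 1, 2 and 3 or more Foxc1 UMIs, with 95% Poisson intervals. Six2 is 4.66 CPM without Foxc1 and about 55 CPM from 2 UMIs on, Eya2 is level from 1 UMI on, and Dach1 is lower in every class with Foxc1 than without.

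Pax9 split the Foxc1 zone into 260 cells with it and 391 without. Six2 was 46.2 CPM (37.3 to 56.5) and 39.0 CPM (32.0 to 47.2) in these cells, a ratio of 1.18 (log2 0.24, -0.17 to 0.66). Eya4 passed the size rule downwards at 7.37 CPM with Pax9 against 13.3 CPM without, 1.80-fold lower, although its interval included no difference (log2 -0.85, -1.82 to 0.06). The intervals of the other members also included no difference, as did those of all 6 in the Dmrt2 zone for 63 cells with Pax9 and 454 without. The widest gap in the Dmrt2 zone was that of Eya1 among members over 10 CPM, with 28.2 CPM (15 to 48.2) against 15 CPM (11.05 to 19.9), which passed the size rule upwards at 1.88-fold (log2 0.91, -0.10 to 1.82). With 63 cells these intervals leave room for differences of more than 2-fold.

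Clusters made without the members, the zone genes and the listed genes gave a finer view of the same cells. Among 14 clusters at E12.0, Six2 was highest (61.8 CPM) in 345 cells led by Fam150b, Col9a1 and Itga9, where Foxc1 itself was 176 CPM and Eya2 66.3 CPM. Six4 was also highest in these 345 cells, at 67.7 CPM (58.5 to 77.8). Its lowest level was 30.3 CPM (27.2 to 33.6), in 1746 cells led by Fgf8, Ephb1 and Timp3. Eya4 (50.3 CPM) and Eya1 (13.8 CPM) were highest in a cluster of 1322 cells led by Barx1, Dmrt2 and Eya4. Dach1 was 150 CPM in 96 cells led by Shh, Wif1 and Bmp2, and 56.7 CPM in 433 cells led by Zfp750 and Pkp1, both above the 34.6 CPM of the cluster led by Irx1. Its level in the Irx1 zone therefore does not give the top of its range, and a single cluster of 96 cells carried that top. The lead genes describe clusters and are no test of them.

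Over the 14 clusters, the gene whose log2 level followed that of Six2 most closely was Hpca (r = 0.93), and Cpz and Fgd5 came next. Eya2 was followed by Crabp2 (r = 0.95), Eya4 by Osr1 (r = 0.93), Dach1 by Tspan5 (r = 0.93), with Shh at r = 0.92, and Six4 by Rmnd5a (r = 0.87). Eya1 did not reach 20 CPM in any E12.0 cluster and was not ranked. These are descriptions over clusters of 1 library, chosen as the highest among 8356 genes.

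At E9.5 the gates of epithelium, mesoderm core and mesenchyme required 3 or more summed UMIs of marker genes. Endoderm had no such gate and held the cells past the epithelial gate in which any UMI of selected endoderm markers was found. This gave 2452 epithelial, 633 endodermal, 544 mesoderm core and 5481 mesenchymal cells. Endodermal cells whose markers went undetected would count as epithelium, so differences between endoderm and epithelium are less firm than their intervals. Cells that passed 2 gates were set aside as mixed (1632 cells), except that core cells could also pass the mesenchymal gate, and 1676 cells passed none. Haemoglobin genes summed to between 287 and 924 CPM in the 4 compartments and to 35181 CPM in the cells that passed no gate. The core cells carried 890 CPM of the core markers (Tcf21, Msc, Myf5, Lhx2, Tbx1 and Ebf1) and 318 CPM of the mesenchymal ones. Mesenchymal markers summed to 60.5 CPM in the epithelium and 59.2 CPM in the endoderm, against 1486 CPM in the mesenchyme. Epithelial markers summed to between 19.9 and 21.7 CPM in the core and mesenchyme. All epithelial markers and most of the core and mesenchymal ones also defined the gates. These sums were therefore partly set by the gates and are no independent measure of carried-over RNA. The part of carried-over RNA in the levels below was not tested. Of 24 pairs of a member and a compartment, 6 passed the size rule upwards and 2 downwards, and 12 reached 10 CPM.

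**Figure D3:**
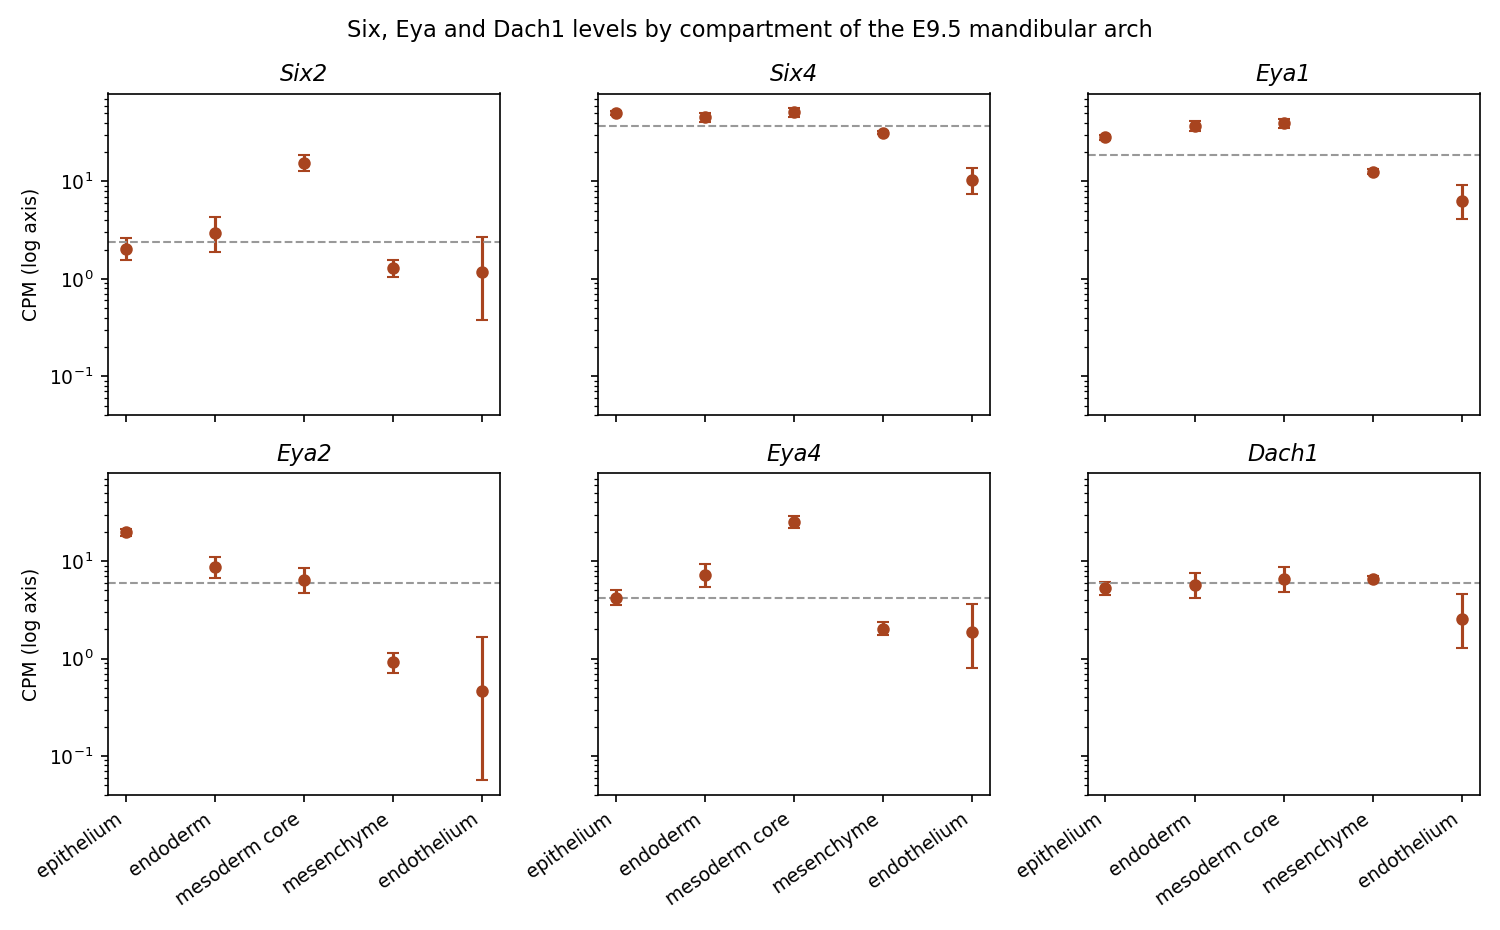
CPM on a log axis of each member in the 4 E9.5 compartments and in endothelial cells. Points are CPM over the summed cells of 1 library, bars are 95% Poisson intervals and the dashed line is the level over all kept cells. Six2 (15.5 CPM) and Eya4 (25.1 CPM) peak in the mesoderm core and Eya2 in the epithelium (19.7 CPM), while Dach1 stays between 5.24 and 6.56 CPM across the 4 compartments.

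Six2 and Eya4, which marked different epithelial zones at E12.0, were both highest in the E9.5 mesoderm core, the source of the branchiomeric muscles. Six2 was 15.5 CPM (12.8 to 18.5) there, 8.83-fold over all other cells (log2 3.14, 2.82 to 3.46), and between 1.29 and 2.93 CPM in the other compartments. Eya4 was 25.1 CPM (21.6 to 28.9) in the core, 7.82-fold over other cells (log2 2.97, 2.72 to 3.21), and then 7.21 CPM in the endoderm, 4.22 CPM in the epithelium and 2.03 CPM in the mesenchyme. A Six2 UMI was seen in 18.6% of core cells and an Eya4 UMI in 26.8%. The shares in endothelial cells, taken as the level in a lineage not expected to use these genes, were 1.60% and 2.24%, with median depths of 13490 UMIs in endothelial and 12999.5 UMIs in core cells. Six2 was held by 2.41% of epithelial cells.

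Eya1 passed the rule upwards in 3 of 4 compartments at E9.5. It was 39.5 CPM (35.2 to 44.2) in the core and 37.1 CPM (33.1 to 41.6) in the endoderm, which did not differ beyond their intervals, then 28.3 CPM in the epithelium and 12.6 CPM in the mesenchyme. The core, endoderm and epithelium were 2.21-, 2.07- and 1.68-fold over all other cells, and the mesenchyme was 1.96-fold lower. The epithelial call was lost in thinned cells (log2 0.45). Eya1 UMIs were found in 7.99% of endothelial cells, against 16.1% of mesenchymal and 40.8% of core cells.

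Eya2 marked the epithelium. It was 19.7 CPM (18.2 to 21.4) there, 6.90-fold over other cells (log2 2.79, 2.60 to 2.98), and 8.67 CPM in the endoderm, 6.43 CPM in the core and 0.92 CPM (0.72 to 1.15) in the mesenchyme, which passed the rule 11.5-fold lower. The epithelium was 2.27-fold over the endoderm, while endoderm and core did not differ beyond their intervals. Six4 was 51.2 CPM in the core, 50.2 CPM in the epithelium and 45.4 CPM in the endoderm, which did not differ between neighbours, and 31.7 CPM in the mesenchyme, 1.43-fold below the endoderm. Dach1 lay between 5.24 and 6.56 CPM, and no neighbouring compartments differed beyond their intervals.

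In the epithelium 2 of 3 members that reached 10 CPM passed upwards and 0 downwards, where 13.1% and 5.76% of all genes did. In the endoderm 1 of 2 passed upwards and 0 downwards, against 14.5% and 5.08%, and in the core 3 of 4 passed upwards and 0 downwards, against 6.87% and 5.36%. In the mesenchyme 0 of 3 passed upwards and 2 downwards, against 2.5% and 12.2%. The median log2 ratio of those members was 0.75 in the epithelium, 0.68 in the endoderm, 2.06 in the core and -0.97 in the mesenchyme, against 0.08, 0.09, 0.02 and -0.07 over all genes. Among the compartments, Six2 and Eya4 reached 10 CPM in the core alone, where they were high. As at E12.0, these shares and medians describe the members and do not test them.

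The narrow range of Dach1 over compartments hid clusters in which it was high. Among 18 clusters at E9.5 it was 54.1 CPM in 115 cells led by Fst, Foxd1 and Pappa and 43.3 CPM in 252 cells led by Ttn, Acta2 and Tnni1, and at most 10.1 CPM in the other clusters. Six2 was also highest in the 115 cells (22.3 CPM), ahead of the core cluster led by Tbx1, Tcf21 and Lhx2 (14.2 CPM). Eya1 was highest (50.2 CPM) in 336 cells led by Pax1, Uchl1 and Pax9, and Eya2 (26.9 CPM) in 732 cells led by Wnt6, Foxi2 and Sostdc1. Other epithelial clusters held Eya2 at 22.5 CPM (1202 cells led by Vgll2), 14.1 CPM (756 cells led by Ccdc68) and 5.47 CPM (924 cells led by Ahnak). Eya2 was also 18.2 CPM in the 115 cells led by Fst, to which no compartment was assigned. The genes with the closest pattern over these clusters were Hlf for Six2 (r = 0.93), Zfp445 for Six4 (r = 0.95), Trim2 for Eya1 (r = 0.91), Epb41l4a for Eya2 (r = 0.92), Prox1 for Eya4 (r = 0.84) and Ndnf for Dach1 (r = 0.88).

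Levels were then compared between E12.0 kept cells and E9.5 epithelium. Stage, sort, dissociation, counting version and choice of cells differ together between them and cannot be told apart. Cells with endoderm markers were left out of the E9.5 epithelium, whereas no such cells were removed at E12.0. Of the 6 members, Six2 and Dach1 were more than 2-fold higher at E12.0 and Eya1 more than 2-fold lower. Eya1 was 28.3 CPM (26.4 to 30.2) at E9.5 and 6.08 CPM (5.55 to 6.65) at E12.0, 4.65-fold lower (log2 -2.22, -2.38 to -2.05). Dach1 was 5.24 CPM (4.46 to 6.12) and 12.7 CPM (12.0 to 13.6), 2.43-fold higher (log2 1.28, 1.04 to 1.53). Six2 was 2.04 CPM (1.57 to 2.62) and 7.57 CPM (6.97 to 8.21), 3.70-fold higher (log2 1.89, 1.51 to 2.29). Its E9.5 level lay near the 1.16 CPM (0.38 to 2.72) of E9.5 endothelial cells. Without the Foxc1 and Pax9 zones Six2 was 2.41-fold higher, with an interval that reached below 2-fold (log2 1.27, 0.87 to 1.68). The mixed E12.0 cells, with Six2 at 15.8 CPM, remained in that comparison.

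**Figure D4:**
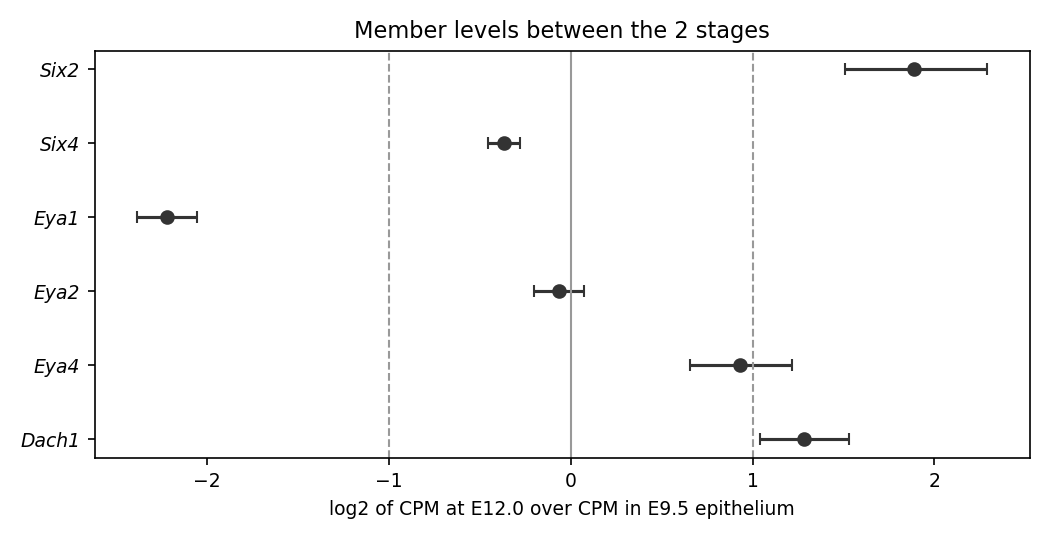
The log2 ratio of CPM in all kept E12.0 cells over CPM in E9.5 epithelium for each member, with the exact 95% interval of the ratio of 2 counts. Dashed lines mark 2-fold differences in either direction. Eya1 lies at -2.22, Six2 at 1.89 and Dach1 at 1.28, and Six4, Eya2 and Eya4 lie between the dashed lines.

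Eya4 was 8.05 CPM at E12.0 and 4.22 CPM at E9.5, 1.91-fold higher (log2 0.93, 0.65 to 1.22), and crossed 2-fold under 3 of 6 alternative settings. Six4 (38.9 and 50.2 CPM) was 1.29-fold lower at E12.0. Eya2 (18.8 and 19.7 CPM) did not differ beyond its interval (log2 -0.07, -0.20 to 0.07), but was 1.299-fold lower at E12.0 without the Foxc1 and Pax9 zones (log2 -0.38, -0.52 to -0.23). Of the 4 members that reached 10 CPM at either stage, 1 passed 2-fold upwards and 1 downwards, against 19.6% and 6.82% of all genes. Six2 reached 10 CPM at neither stage and is not among these 4. Dach1 and Eya1 each reached it only at the stage where they were higher, so the shares describe the members and do not test them. The median log2 ratio over all genes was 0.21, and the members' ratios stand beside that shift.

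Because the proteins of both families act together, the number of cells that held UMIs of both was compared with the product of their shares. In 10439 E12.0 cells thinned to 4000 UMIs, Six2 and Eya2 were detected together in 46 cells where 18.1 were expected, a ratio of 2.54 (1.86 to 3.38). Six4 and Eya2 were detected together in 127 cells where 102 were expected, a ratio of 1.24 (1.04 to 1.48). These were the 2 of 6 pairs of Six2 or Six4 with an Eya member that had a ratio of at least 1.2 in at least 20 cells. Eya2 was present in 17.4% of Six2-positive cells and 6.84% of all cells.

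The other pairs gave 43 joint cells for Six4 and Eya1 (ratio 1.17, 0.85 to 1.58), 39 for Six4 and Eya4 (1.02, 0.72 to 1.39), 10 for Six2 and Eya1 (1.54, 0.74 to 2.83) and 5 for Six2 and Eya4 (0.73, 0.24 to 1.71). The ratio of Six2 and Eya2 was lower within zones. In the Foxc1 zone, 25 of 616 cells held both where 19.4 were expected, a ratio of 1.29 (0.84 to 1.89) whose interval included 1. With mitochondrial counts limited to 5% neither pair was counted, Six2 and Eya2 having 15 joint cells (ratio 1.92) and Six4 and Eya2 46 (ratio 1.16). The expected number was also summed over groups, namely the zones, the ungated cells and the mixed cells. The ratio was then 1.42 for Six2 and Eya2 and 1.201 for Six4 and Eya2. As ungated and mixed cells entered them, these are not ratios within zones alone. Dach1 and Six2 were found together in 4 cells where 10.9 were expected, a ratio of 0.37 (0.10 to 0.94). The ratio was 0.49 against the 8.18 cells expected when summed over the same groups. With so few joint cells this ratio is uncertain.

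**Figure D5:**
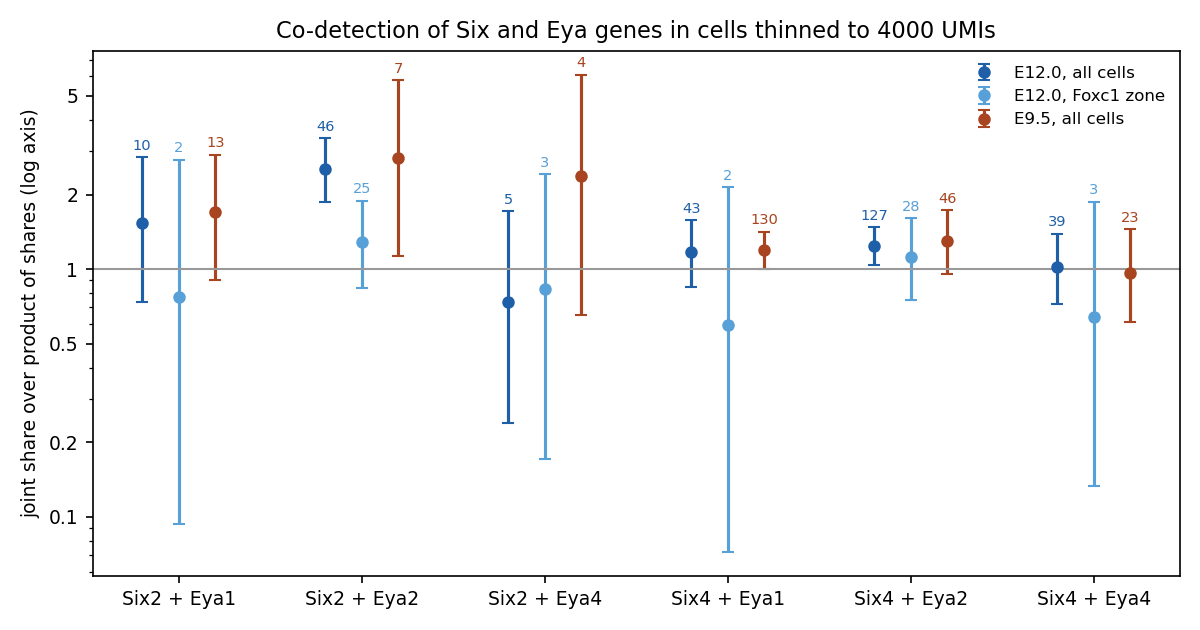
Share of cells with UMIs of both genes over the product of their shares, on a log axis, for the 6 pairs of Six2 or Six4 with Eya1, Eya2 or Eya4 in cells thinned to 4000 UMIs, with exact 95% binomial intervals and the number of joint cells above each interval. Six2 with Eya2 stands at 2.54 over all E12.0 cells and 1.29 within the Foxc1 zone, and the line at 1 marks the number expected from the shares.

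Among the Eya genes themselves, Eya2 was detected with Eya4 in 46 cells (ratio 2.51, 1.84 to 3.34) and with Eya1 in 43 cells (ratio 2.46, 1.78 to 3.31) at E12.0. Within the Dmrt2 zone the ratio of Eya2 and Eya4 was 0.83 (0.44 to 1.40) with 13 joint cells. That of Eya1 and Eya2 in this zone was 1.80 (0.87 to 3.29) with 10 joint cells. With the expected number summed over zones, ungated cells and mixed cells, the E12.0 ratio was 1.38 for Eya2 and Eya4. It was 1.96 for Eya1 and Eya2, and neither is a ratio within zones alone. At E9.5, over 11029 thinned cells, Six4 was found with Eya1 in 130 cells (ratio 1.19, 1.00 to 1.42) and with Eya2 in 46 cells (1.302, 0.95 to 1.74). With the expected number summed over the compartments and the cell groups outside them, these ratios were 1.108 and 1.0697. Within the E9.5 epithelium they were 0.94 (0.66 to 1.303) and 0.95 (0.63 to 1.39). Within the mesenchyme Six4 and Eya1 shared 43 cells where 30.1 were expected, a ratio of 1.43 (1.04 to 1.92) that met the rule. Their ratio was 0.92 (0.48 to 1.59) in the endoderm and 0.99 (0.56 to 1.61) in the core. Six4 and Eya2 shared only 3 or 4 cells in each of these compartments. Six2 and Eya2 shared 7 cells and Six2 and Eya4 shared 4, numbers too small to read.

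Other genes around the network were read from lists. Of 9 cofactors and related factors, Sobp, which encodes a protein that binds sine oculis homeobox factors, was highest in the Foxc1 and Pax9 zones, as Six2 was. It was 42.9 CPM in the Foxc1 zone, 28.2 CPM in the Pax9 zone and 2.68 CPM in the Cxcl14 zone. Sobp was the only cofactor to pass upwards in the Foxc1 and Pax9 zones. Tle1 passed downwards in both and Tle4 in the Foxc1 zone. The median log2 ratio of the 8 cofactors that reached 10 CPM was -0.16 in the Foxc1 zone and -0.08 in the Pax9 zone. Under the size rule between 3.09% and 5.32% of all genes passed upwards and between 4.12% and 5.65% downwards in an E12.0 zone, and between 2.5% and 14.5% upwards and between 5.08% and 12.2% downwards in an E9.5 compartment. Beside these shares, the list of cofactors gave 3 upward and 4 downward calls among 38 pairs that reached 10 CPM at E12.0, and 11 and 2 among 32 at E9.5. The list of 16 genes known downstream of or beside the network gave 12 upward and 10 downward calls among 35 pairs at E12.0 and 14 and 11 among 41 at E9.5. Listed genes, too, could reach 10 CPM through the group in which they were high. The counts of all lists, the placode list included, are therefore descriptions and no test. For the list of 16 genes the calls were as follows. At E12.0 its upward calls included the FGF feedback inhibitors Spry1 and Spry2 in the Foxc1 and Pax9 zones (76.8 and 77.1 CPM for Spry2) and Tbx1 in the Pax9, Dmrt2 and Irx1 zones. Its downward calls included Slc12a2, which encodes an ion cotransporter, and the cyclin gene Ccnd1 in the Foxc1 and Pax9 zones (288 and 327 CPM for Slc12a2, 101 and 52.7 CPM for Ccnd1). In the Cxcl14 zone Slc12a2, Myc, Tbx1, Spry1 and Spry2 passed downwards, and Ccnd1 did so in the Dmrt2 zone. The other upward calls were Slc12a2 and Ccnd1 in the Irx1 zone, Myc in the Foxc1 and Irx1 zones and Spry2 in the Dmrt2 zone.

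The placode list of 11 genes gave 2 upward and 1 downward calls among only 6 pairs that reached 10 CPM at E12.0, and 5 and 6 among 11 at E9.5, where Foxi2 and Gata3 passed in the epithelium.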

How the data were processed

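Droplet libraries (10x Genomics 3' V3 chemistry) were made from 1 pool of 6 E12.0 embryos and 1 pool of 8 E9.5 embryos. The authors aligned reads to GRCm38 (mm10) and deposited raw UMI counts per gene and cell barcode. The submitters' processing notes name Cell Ranger 2.0.0, whereas the matrix headers name 3.1.0 (E12.0) and 6.1.2 (E9.5), so that counting may differ between stages. Cells were filtered as in the study's methods (200 to 5500 genes, at most 10% mitochondrial counts), and no other samples' columns were present.

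UMIs were summed over cells in Python 3.11.15 (numpy 2.4.6, scipy 1.17.1), with exact Poisson intervals for CPM, exact Clopper-Pearson intervals for shares and the exact interval of the ratio of 2 counts. These cover counting error only, and no test was possible with 1 library per stage. A count of 0 was replaced by 3 counts in ratios. Clusters and doublet calls (Scrublet) came from scanpy 1.11.5, with cell cycle genes from Seurat 5.3.0, 30 components, 20 neighbours and 3000 variable genes less the members and listed genes. Called doublets were kept. Cells under 4000 UMIs (916 for the E12.0 library, 1715 for the E9.5 library) were left out of thinned values. Named genes were the members, and listed genes where a result turned on them, and the 3 genes of highest Pearson r over log2(CPM + 5) for each member. Members, lists and zones were chosen with earlier results of these data known. Scripts were tested on simulated data. Alternatives covered thresholds, gates, doublets, depth, weighting and the sex of cells. Some listed genes, and the counts of lists that rest on them, are not reported here.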

Additional observations from a re-analysis of the deposited data

How the results depend on the processing

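The count of 10 member and zone pairs at E12.0 ran from 6 to 11 over 16 alternatives, the 6 under the study's own marker criteria (a fold of 1.3 and a UMI in 15% of cells), which lost the pairs under 15% detection. Dach1 in the Dmrt2 zone was lost under 9 of them, Eya4 in the Pax9 zone under 4, and Six4 in the Foxc1 zone was gained under 3. The 6 pairs at E9.5 ran from 4 to 8. The 3 members between stages became 4 with epithelial clusters, thinning or a 5% mitochondrial limit. The 2 co-detected pairs became 1 with 2 UMIs required, 1 within the Foxc1 zone, 0 under the 5% limit, which keeps 28.7% of E12.0 cells and 15 joint cells for Six2 and Eya2, and 3 without thinning. Of 214 values of single results under alternatives, 184 stayed inside the original interval, 30 left it and 0 changed direction. The cause was not tested. These values cover the upward pairs, the members past 2-fold between stages and the 2 co-detected pairs. All had first passed a size rule, and the alternatives reuse cells of the same libraries. Downward pairs were not put through the alternatives. The alternatives that left out mixed cells and that summed expected shares over zones, ungated and mixed cells were chosen after the data were seen. No paired analysis was possible because each stage has 1 library.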

Other observations

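Some E12.0 cells passed more than 1 zone gate. In 63 cells with both Foxc1 and Irx1, Six2 was 49.2 CPM (33.7 to 69.5), Eya2 53.8 CPM and Six4 69.2 CPM, with a median of 9407 UMIs. In 162 cells with both Irx1 and Cxcl14, Dach1 was 17.8 CPM (12.2 to 25.2) and Six2 5.02 CPM. In 63 cells with both Foxc1 and Cxcl14, Six2 was 24.4 CPM (13.9 to 39.6). Mixed cells as a whole held a median of 10569.5 UMIs and 38.3% were called doublets, and the part of doublets in these levels was not tested.

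The E9.5 arch held 12 cells past the neural gate and no other. They held 7 Eya2 UMIs (63.7 CPM, 25.6 to 131) and 0 UMIs of Six2 and Eya4, for which 3 counts would be 27.3 CPM. Cells past the neural gate and another gate were among the 1632 mixed cells, in which neural crest and glia markers summed to 102 CPM. In endothelial cells all 6 members were at or below 10.2 CPM.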
